A study of Mus musculus with 6 samples.

Results

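The ATP-binding cassette (ABC) transporter family was described in RNA from bEnd.3 cells, an endothelial line from mouse brain carrying the middle T antigen of polyomavirus. Members were taken by gene symbol: every protein-coding gene of the GRCm38 annotation whose symbol is Abc, a subfamily letter from a to g, a number and an optional a or b. The rule found 50 genes among the 55335 identifiers measured, and it used no measured value. It leaves out Tap1, Tap2 and Cftr, which belong to the family under other names and are given with the partner genes. Both groups were wild-type bEnd.3 cells grown in high-glucose DMEM with serum. The 3 libraries called mitochondria came from cells co-incubated for 24 h with mitochondria isolated from primary mouse astrocytes and suspended in 100 µl of medium. The 3 libraries called control came from cells given the same volume of medium without mitochondria. The sources used here do not give the amount of mitochondria added. bEnd.3 is 1 line, and no label says that the libraries of a group were separate cultures, so the spread behind each p-value may be technical only.

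ABC proteins bind and hydrolyse ATP in paired nucleotide-binding domains, and most use that energy to move a substrate across a membrane. In brain endothelium the pumps of the luminal membrane, P-glycoprotein (Abcb1a and Abcb1b in mouse) and Abcg2, return drugs and toxins to the blood. Other members carry cholesterol and phospholipids out of the cell or between leaflets of a membrane, serve the inner mitochondrial membrane, or bring fatty acids into peroxisomes. Abce1 and the Abcf proteins have the ATP-binding domains without a membrane part and act in translation.

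Promoter sequence is printed for 5 members on which the results below turn, as the 250 bases before the RefSeq start on GRCm38.p6, 5′ to 3′ on the strand of the gene. Abca1 is shown for a match to DR4, the kind of element that liver X receptors (LXR) bind, Abcb1b as the P-glycoprotein gene that reached the level for testing, and Abcc4 as a pump whose groups were apart. In Abca1 (chr4:53159896-53160145, minus strand) capitals mark an E-box, CACGTG, 147 to 142 bases before the start, and a match to DR4 67 to 52 bases before it. In Abcb1b (chr5:8797897-8798146, plus strand) they mark 2 CCAAT boxes, 1 on each strand, and a GC box, GGGCGG. In Abcc4 (chr14:118706220-118706469, minus strand) they mark an E-box and, on the other strand, the antioxidant response core TGACNNNGC.
Abca1: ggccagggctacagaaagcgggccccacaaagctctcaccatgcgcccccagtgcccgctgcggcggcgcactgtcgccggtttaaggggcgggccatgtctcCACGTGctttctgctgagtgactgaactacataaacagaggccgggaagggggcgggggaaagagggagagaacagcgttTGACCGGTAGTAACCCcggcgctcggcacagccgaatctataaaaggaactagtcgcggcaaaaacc
Abcb1b: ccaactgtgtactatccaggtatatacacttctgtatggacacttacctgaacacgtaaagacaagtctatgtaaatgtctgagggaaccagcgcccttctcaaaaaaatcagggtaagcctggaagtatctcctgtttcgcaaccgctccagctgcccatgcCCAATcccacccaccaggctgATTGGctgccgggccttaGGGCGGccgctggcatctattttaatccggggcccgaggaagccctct
Abcc4: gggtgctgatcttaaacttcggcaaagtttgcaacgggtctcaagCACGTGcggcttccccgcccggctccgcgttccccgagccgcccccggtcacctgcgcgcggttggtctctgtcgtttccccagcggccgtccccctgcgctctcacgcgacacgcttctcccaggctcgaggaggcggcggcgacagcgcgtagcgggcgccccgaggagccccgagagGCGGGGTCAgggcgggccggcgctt
Abca5 (chr11:110337717-110337966) and Abca8a (chr11:110095938-110096187) lie on the minus strand with Abca9 and Abca6 between them, and are shown for their difference in CpG content. Capitals mark each CG, of which the Abca5 window holds 25 and the Abca8a window 4.
Abca5: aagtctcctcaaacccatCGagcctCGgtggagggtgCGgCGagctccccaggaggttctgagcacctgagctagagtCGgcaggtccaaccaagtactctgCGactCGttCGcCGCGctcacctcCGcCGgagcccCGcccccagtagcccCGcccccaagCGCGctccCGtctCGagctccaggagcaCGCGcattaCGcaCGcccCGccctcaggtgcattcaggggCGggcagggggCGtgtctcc
Abca8a: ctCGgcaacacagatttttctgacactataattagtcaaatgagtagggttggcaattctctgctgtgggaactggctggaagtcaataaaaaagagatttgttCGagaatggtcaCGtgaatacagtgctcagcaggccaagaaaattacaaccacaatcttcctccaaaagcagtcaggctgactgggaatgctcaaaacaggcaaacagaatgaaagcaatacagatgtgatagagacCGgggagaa

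The deposited values were read as FPKM, which are scaled to transcript length and library size, so that levels can be compared between genes. They implied 17000000 to 21100000 fragments per control library and 21800000 to 27200000 per mitochondria library, so implied depth did not overlap between the groups. The nearest were control replicate 3 and mitochondria replicate 2, at 21100000 and 21800000, and the error of these estimates was not measured. The endothelial label was met by some markers and not by others. Of 18 endothelial markers 11 were below the level for testing, with Cdh5, Cldn5 and Robo4 at 0.13 FPKM or less in every library, while Eng lay between 55.5 and 69.0 FPKM. Of 14 astrocyte markers 8 were below that level and Aqp4, Sox9 and Gjb6 were listed at 0 in every library. The 14 summed to 67.2 to 106 FPKM in the controls and 84.3 to 88.1 FPKM with mitochondria. Aldoc (means of 14.1 and 17.9 FPKM, limma adjusted p = 0.268), Aldh1l1 (0.391 and 1.06 FPKM, below the level for testing) and Slc1a2 (0.0476 and 0.122 FPKM, likewise) lay wholly above the controls. Of the 6 astrocyte markers tested, 3 had log2 differences above 0 and 3 below. Those below were Gja1 (34.5 and 24.4 FPKM), Glul (38.2 and 36.4 FPKM) and S100b (1.00 and 0.944 FPKM), each with overlapping groups. Gja1, which is part of the sums above, was at 45.7, 11.7 and 46.0 FPKM in the controls. Its mitochondria libraries, at 24.1, 23.5 and 25.8 FPKM, lay within that range. The 18 endothelial markers summed to 142 to 150 FPKM in the controls and 164 to 177 FPKM with mitochondria, of which Cd34 made up means of 60.3 and 80.1 FPKM (limma adjusted p = 0.0265). Kdr, with means of 3.94 and 3.00 FPKM, and Flt1, with 10.04 and 7.75 FPKM, lay wholly below the controls (limma adjusted p = 0.143 and adjusted p = 0.114). The 13 fibroblast and mural markers summed to 431 to 466 FPKM in the controls and 383 to 421 FPKM with mitochondria, of which Col1a1 made up means of 138 and 83.9 FPKM (limma adjusted p = 0.00547). Of the 6 tested in that list 4 had log2 differences above 0, and Pdgfra (18.4 and 22.6 FPKM), Acta2 (1.64 and 2.18 FPKM) and Des (4.97 and 6.65 FPKM) lay wholly above the controls without passing the threshold. The 9 microglia and macrophage markers summed to 228 to 275 FPKM and 184 to 211 FPKM, nearly all of it Tmem119, and Ptprc and P2ry12 were listed at 0. In bulk RNA fewer cells of a type and less RNA per cell cannot be told apart.

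A gene was tested where it reached 1 FPKM in at least 3 of the 6 libraries, which 27 of the 50 members did, each with at least 2 control libraries and all 3 mitochondria libraries at that level. None passed an adjusted p under 0.05 in limma, adjusted by Benjamini-Hochberg over the 12639 genes tested, of which 1.12% passed, 0.467% higher and 0.649% lower. The smallest adjusted p in the family was that of Abcc3, 0.0567 by limma, and no member passed under any alternative setting of the fit. At an unadjusted p under 0.05 there were 8 members (29.6% of the 27, against 13.9% of all genes tested), 7 higher with mitochondria (25.9% of the 27, against 6.58% of all genes tested) and 1 lower (3.70%, against 7.32%). The count was 4 without mitochondria replicate 1, 6 without control replicate 1 or without mitochondria replicate 2, and 8 without any other library. The mitochondria libraries lay wholly above the controls for 7 members (25.9%, against 9.62% of all genes) and wholly below for 3 (11.1%, against 11.4%). The family's median log2 change was 0.05, and that of all genes tested was -0.01. The greater implied depth of the mitochondria libraries and the marker levels above went with these differences, and their part in them was not tested.

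**Figure D1:**
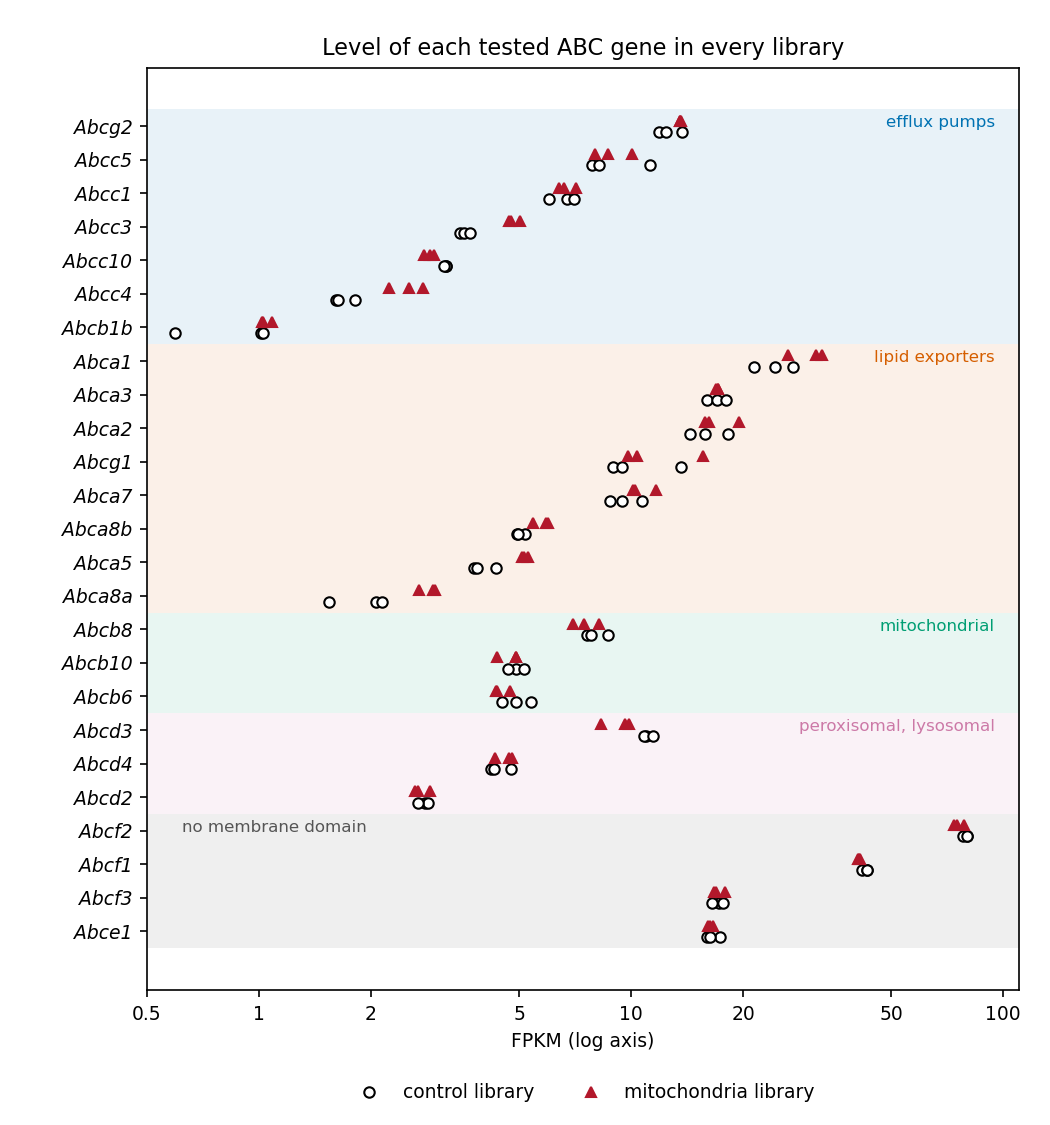
FPKM (log axis) of 25 of the 27 tested ABC genes, by role, in each of the 3 control libraries (open circles) and 3 mitochondria libraries (triangles). Abcf2 is at the top of the range, between 73.8 and 80.1 FPKM, and Abcb1b at the bottom, between 0.593 and 1.08 FPKM.

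Levels ran over a wide range within the family. The 3 genes with the highest means, Abcf2 at 77.6 FPKM, Abcf1 at 41.9 FPKM and Abca1 at 27.2 FPKM over the 6 libraries, each stood apart from the next in the order. Abcf2 was above 95.7% of all genes tested. Abcf3, Abca3, Abca2 and Abce1 followed with means from 16.4 to 17.1 FPKM, and neighbours among these 4 overlapped in their library ranges. A long run from Abcg2 at 13.1 FPKM to Abcc1 at 6.65 FPKM likewise held no gap between neighbours. Abcc4 at 2.10 FPKM and Abcb1b at 0.960 FPKM closed the order, and Abcb1b stood apart from Abcc4.

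Among the 12 efflux pumps for drugs and conjugates, 7 were tested, and the one at the highest level was Abcg2. Abcg2 (ENSMUSG00000029802, chromosome 6, 58584523 to 58695676), the breast cancer resistance protein, was at 11.9, 12.4 and 13.7 FPKM in control replicates 1 to 3 and at 13.6, 13.5 and 13.5 FPKM in mitochondria replicates 1 to 3. The groups overlapped, with a log2 change of 0.09 on the log2(FPKM + 1) scale (limma: SE 0.06, adjusted p = 0.582) and a 95% interval from -0.06 to 0.25. Abcb1b (ENSMUSG00000028970, chromosome 5, 8798147 to 8866315), a P-glycoprotein gene, was at 0.593, 1.02 and 1.03 FPKM in the controls and at 1.08, 1.02 and 1.02 FPKM with mitochondria. Control replicate 1 was the low library there and the other 5 lay close together. Its log2 change was 0.13 (limma: SE 0.11, adjusted p = 0.672), and it was 0.015 without control replicate 1 and 0.26 with a pseudocount of 0.1. Abcb1a (ENSMUSG00000040584, chromosome 5, 8660077 to 8748575), the P-glycoprotein gene known from brain capillaries, was below the level for testing. It was at 0.0474, 0.0915 and 0.0895 FPKM in the controls and at 0.140, 0.104 and 0.0930 FPKM with mitochondria. The mitochondria libraries were above the controls, but 1 fragment in a transcript of 5000 bases is worth 0.00736 to 0.0117 FPKM, so these levels rest on few fragments. Within a library Abcg2 exceeded Abcb1b by 12.2 to 20.02 times and Abcb1a by 97.2 to 250.3 times. Of the 31-base words of Abcb1a, 21.7% also occur in Abcb1b, so fragments from shared words can be assigned to either gene.

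The multidrug resistance proteins of the Abcc subfamily, which export conjugates and nucleotides, made up the rest of the tested pumps. Abcc3, an exporter of glucuronides and bile salts (ENSMUSG00000020865, chromosome 11, 94343295 to 94392997), was at 3.47, 3.56 and 3.68 FPKM in the controls and at 4.76, 4.68 and 5.03 FPKM with mitochondria. All 3 mitochondria libraries were above all controls, by more than the spread within either group, and the ratio of the means was 1.35. The log2 change was 0.35 (SE 0.06, 95% interval 0.21 to 0.49, limma adjusted p = 0.0567), and over the alternative settings the adjusted p ran from 0.0502 to 0.211. Abcc4, which exports cyclic nucleotides and prostaglandins (ENSMUSG00000032849, chromosome 14, 118482692 to 118706219), was at 1.61, 1.63 and 1.82 FPKM in the controls and at 2.23, 2.54 and 2.77 FPKM with mitochondria. These groups were also apart, with a ratio of means of 1.49 and a log2 change of 0.39 (limma: SE 0.08, adjusted p = 0.0999). Neither gene passed the threshold.

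The other 3 tested Abcc pumps did not share this pattern of values. Abcc1, which exports glutathione conjugates (chromosome 16, 14361558 to 14475737), was at 6.03, 6.74 and 7.04 FPKM in the controls and at 7.10, 6.59 and 6.41 FPKM with mitochondria, a log2 change of 0.02 (95% interval -0.15 to 0.19, limma adjusted p = 0.942). Abcc5, a nucleotide exporter, was at 7.83, 8.19 and 11.3 FPKM in the controls and at 8.65, 7.99 and 10.0 FPKM with mitochondria. Replicate 3 was the highest library in both groups, and the groups overlapped (limma adjusted p = 0.974). Abcc10, at 3.17, 3.18 and 3.14 FPKM in the controls, was at 2.88, 2.77 and 2.96 FPKM with mitochondria. Those groups were apart in the lower direction, with a log2 change of -0.10 (limma: SE 0.06, adjusted p = 0.502). The 7 tested pumps had a median log2 change of 0.09, with 5 values above 0 and 2 below. Besides Abcb1a, the pumps Abcc2, Abcc6, Abcc12 and Abcb5 were not tested, each at 0.0223 FPKM or less in every library.

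The lipid exporters and flippases counted 22 genes, of which 8 were tested and none passed. All 8 had log2 changes above 0, with a median of 0.16, although those of Abca2, Abca3 and Abcg1 were below 0 when 1 library was left out. Over all genes tested, 6062 of 12639 had log2 changes above 0. The median of the 8 lipid exporters was 0.25 without control replicate 3 and 0.12 without control replicate 1. Abca1, which loads cholesterol and phospholipid onto apolipoproteins (ENSMUSG00000015243, chromosome 4, 53030787 to 53159895), was at 21.4, 27.3 and 24.4 FPKM in the controls and at 31.4, 32.5 and 26.4 FPKM with mitochondria. The groups overlapped, since mitochondria replicate 3 was below control replicate 2. The log2 change was 0.29 (SE 0.11, 95% interval 0.03 to 0.56, limma adjusted p = 0.305). Abcg1, which passes cholesterol to lipoprotein particles (chromosome 17, 31057675 to 31117988), was at 8.92, 9.47 and 13.6 FPKM in the controls and at 9.80, 10.4 and 15.6 FPKM with mitochondria. Replicate 3 was the highest library of both groups, and each mitochondria library was above the control with its number, but the labels do not tie those numbers to a shared culture. The log2 change of Abcg1 was 0.14, with a 95% interval from -0.35 to 0.63 (limma adjusted p = 0.816), the widest in the family. Abca3, a lipid pump of lamellar bodies, was at 16.97 ± 1.003 and 17.1 ± 0.121 FPKM (SD, n = 3 in each group), and Abca2, an endosomal member, at 16.2 ± 1.97 and 17.2 ± 2.07 FPKM in control and mitochondria libraries. Abca7, a relative of Abca1 linked to phagocytosis, was at 9.64 ± 0.957 and 10.7 ± 0.874 FPKM. The limma adjusted p-values of these 3 were 0.972, 0.797 and 0.550. Antisense transcript D330041H03Rik shares 8.81% of the 31-base words of Abca3, at 1.40 to 2.02 FPKM over the libraries, and the sources used here do not say whether counting used strand.

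The members Abca8b, Abca8a, Abca9, Abca6 and Abca5 lie side by side on the minus strand of chromosome 11, from 109932190 to 110337716, with no other protein-coding gene between them. Abca5, a lysosomal member, was at 3.77, 3.86 and 4.34 FPKM in the controls and at 5.14, 5.28 and 5.09 FPKM with mitochondria. Its log2 change was 0.31 (limma: SE 0.07, adjusted p = 0.1003). Abca8a was at 2.06, 2.13 and 1.54 FPKM in the controls and at 2.96, 2.94 and 2.69 FPKM with mitochondria, a log2 change of 0.41 (limma: SE 0.10, adjusted p = 0.129). Its neighbour Abca8b was at 4.92, 5.19 and 4.96 FPKM in the controls and at 5.995, 5.92 and 5.43 FPKM with mitochondria, a log2 change of 0.17 (limma: SE 0.06, adjusted p = 0.291). In these 3 genes the groups were apart, with ratios of means of 1.29, 1.497 and 1.1505 for Abca5, Abca8a and Abca8b. None of the 3 passed the threshold, and 9.62% of all genes tested lay wholly above the controls. Abca9 and Abca6 were not tested. Abca9 was at 0.609, 0.714 and 0.987 FPKM in the controls and at 1.04, 0.973 and 1.16 FPKM with mitochondria, so its groups overlapped by 1 library. Abca6 lay between 0.271 and 0.353 FPKM over all 6 libraries, with group means of 0.313 and 0.301 FPKM. Abca8a and Abca8b share under 3% of their 31-base words with each other, 2.89% and 2.48%.

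**Figure D2:**
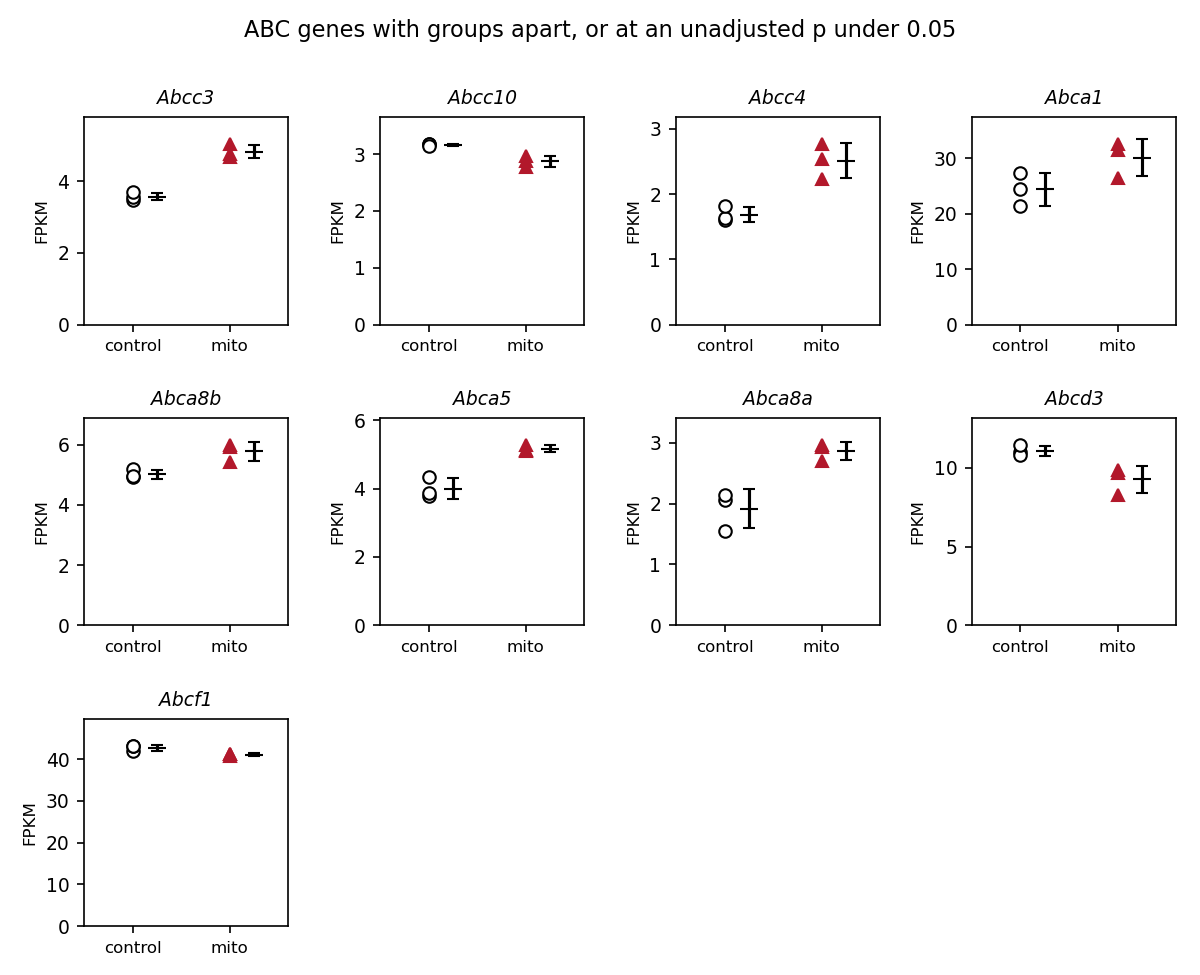
FPKM of 9 tested members whose groups did not overlap or whose unadjusted p was under 0.05, with each control library (circle), each mitochondria library (triangle) and the mean ± SD (bar, n = 3) beside them, axes from 0. Only Abca1 of these has overlapping groups, and Abcc10, Abcd3 and Abcf1 are the 3 that lie lower with mitochondria.

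All 4 mitochondrial members were tested, and none passed the threshold or had an unadjusted p under 0.05. Abcb8, part of a potassium channel complex of the inner membrane (chromosome 5, 24393663 to 24410054), was at 8.66, 7.61 and 7.83 FPKM in the controls and 7.46, 8.20 and 6.98 FPKM with mitochondria (limma adjusted p = 0.706). Abcb10, which takes part in heme synthesis (chromosome 8, 123952459 to 123983122), was at 4.92, 5.14 and 4.68 FPKM in the controls and 4.89, 4.35 and 4.90 FPKM with mitochondria (limma adjusted p = 0.800). Abcb6, linked to porphyrin transport (chromosome 1, 75171717 to 75180392), was at 4.92, 4.51 and 5.39 FPKM in the controls and 4.34, 4.36 and 4.73 FPKM with mitochondria (limma adjusted p = 0.561). In these 3 genes the groups overlapped, with log2 changes of -0.08, -0.05 and -0.12 for Abcb8, Abcb10 and Abcb6. Their 95% intervals lay between -0.295 and 0.113. The values of Abcb6 depend on how fragments were divided, since 52.1% of its 31-base words also occur in the overlapping transcript Gm29253, which was at 0.278 FPKM or less. Abcb10 shares 9.12% of its words with the antisense transcript Gm45890, at 0.327 FPKM or less.

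Among the 5 peroxisomal and lysosomal members 4 were tested, and none passed. Abcd3, an abundant peroxisomal membrane protein (ENSMUSG00000028127, chromosome 3, 121758774 to 121815302), was at 10.99, 10.8 and 11.5 FPKM in the controls and at 8.28, 9.90 and 9.65 FPKM with mitochondria. All 3 mitochondria libraries were below all controls, with a ratio of means of 0.836. The log2 change was -0.24 (limma: SE 0.08, adjusted p = 0.231). Abcd2, a peroxisomal fatty acid importer, was at 2.77 ± 0.0831 and 2.73 ± 0.135 FPKM, and Abcd4, which helps move cobalamin out of lysosomes, at 4.42 ± 0.304 and 4.59 ± 0.255 FPKM (SD, n = 3 in each group). Their limma adjusted p-values were 0.945 and 0.824. Abcb9, a lysosomal peptide transporter, was below the level for testing, between 0.670 and 0.998 FPKM.

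The 4 members without a membrane domain were at high levels and had the narrowest intervals. Abcf2 (chromosome 5, 24565345 to 24577467) was at 79.9, 77.8 and 80.1 FPKM in the controls and at 73.8, 75.4 and 78.7 FPKM with mitochondria, a log2 change of -0.06 (limma adjusted p = 0.640). Its words recur in part, 8.11% of them, in Gm8345, which was at 0.0369 FPKM or less, so its level depends in part on how fragments were divided. Abcf1, a partner of initiation factor eIF2 (chromosome 17, 35956819 to 35969761), was at 41.9, 43.2 and 43.2 FPKM in the controls and at 40.8, 41.3 and 41.1 FPKM with mitochondria. Its groups were apart by a small margin, with a ratio of means of 0.961 and a log2 change of -0.06 (95% interval -0.16 to 0.05, limma adjusted p = 0.640). Abce1, which splits ribosomes after termination (chromosome 8, 79683462 to 79711740), was at 16.0, 17.3 and 16.3 FPKM in the controls and at 16.6, 16.3 and 16.1 FPKM with mitochondria (limma adjusted p = 0.941). Abcf3 was at 17.1 ± 0.577 and 17.2 ± 0.605 FPKM (limma adjusted p = 0.994). The median width of the 95% interval to either side was 0.12 for these 4 genes, 0.17 for the pumps and 0.22 for the lipid exporters on the log2 scale.

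**Figure D3:**
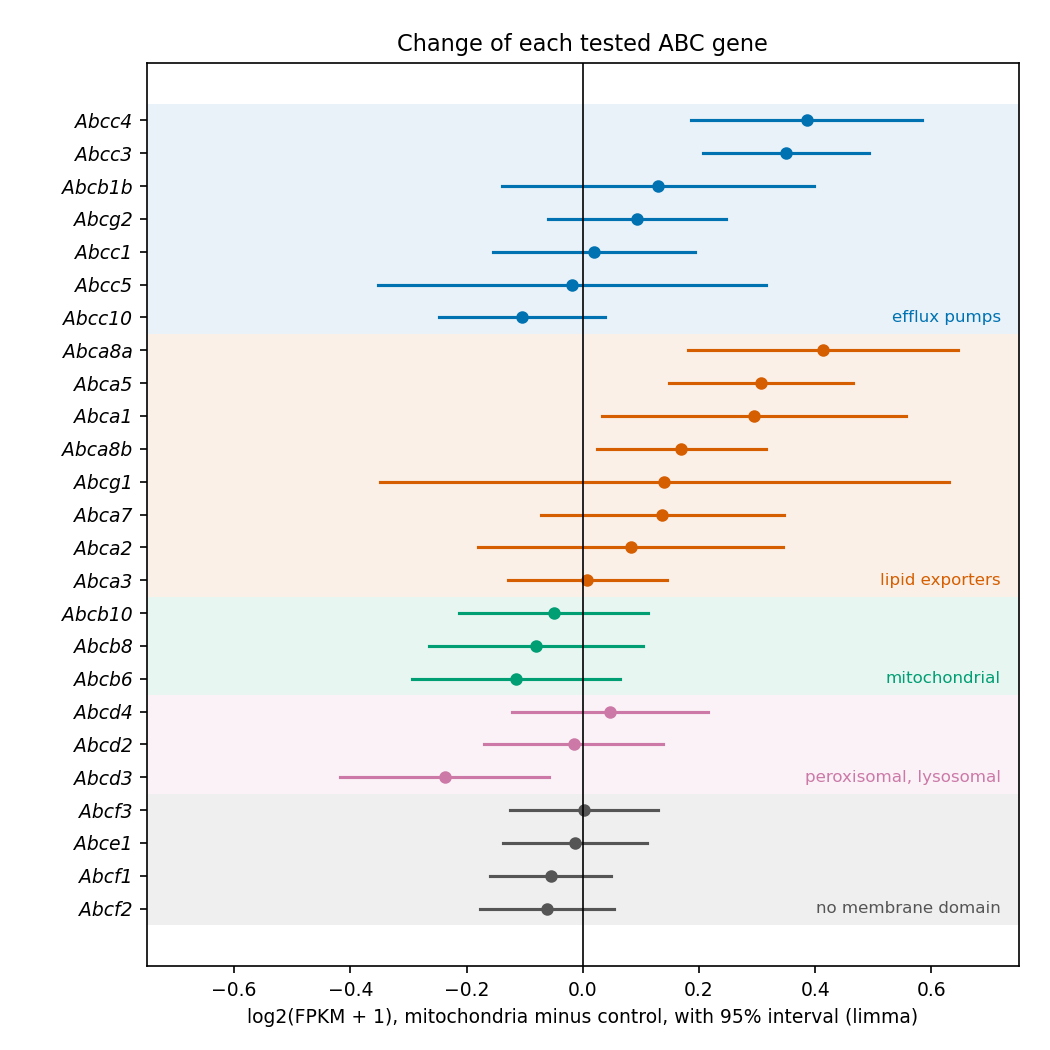
Difference in log2(FPKM + 1), mitochondria minus control, of 25 of the 27 tested members with the 95% interval of limma (lines, from 3 against 3 libraries), by role. The 7 intervals drawn that exclude 0 are unadjusted, and none of these genes passed after adjustment over all genes tested.

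Of the 23 members that were not tested, 14 were lipid exporters and 2, Abcc8 and Abcc9, were the sulphonylurea receptors that regulate potassium channels. Abcc8 was at 0.00627 FPKM or less and Abcc9 at 0.0431 FPKM or less in each library. Abca15 and Abcg3 were listed at 0 in all 6 libraries. Liver and intestine members were near the bottom of the scale: Abcb11, the bile salt pump, reached 0.106 FPKM, Abcb4, the biliary phospholipid flippase, 0.0318 FPKM, and Abcg5 and Abcg8, the sterol pair, 0.0216 and 0.0982 FPKM. When no filter was applied, 48 members could be fitted, none passed the limma threshold (0.0443% of the 29365 genes did), and 9 had an unadjusted p under 0.05 (8.51% of all genes). Of the 21 members that this added 1 was among them, as were 5.11% of all genes it added. That member was Abca4, the retinal flippase, at 0.0861 and 0.0464 FPKM (limma adjusted p = 0.581).

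Genes that work with the family were taken from lists by pathway, and of their 70 tested genes of 77 none passed the limma threshold, while 7 were higher and 4 lower at an unadjusted p under 0.05, where 6.58% and 7.32% of all genes tested were. Among 15 tested genes of cholesterol efflux and LXR targets, the smallest p was that of Apoe, an acceptor of exported cholesterol. Apoe was at 4.96, 7.29 and 4.12 FPKM in the controls and at 2.38, 1.57 and 2.49 FPKM with mitochondria, so its groups were apart in the lower direction, whereas the log2 difference of Abca1 was above 0. The log2 change of Apoe was -1.02 (limma: SE 0.20, adjusted p = 0.0761). Of the 15 genes, 7 had log2 differences above 0 and 8 below. Srebf1 (means of 46.0 and 50.5 FPKM, limma adjusted p = 0.251) was the 1 gene wholly above the controls, and 2 lay wholly below. Over all genes tested these shares were 9.62% and 11.4%. The LXR genes themselves, Nr1h2 and Nr1h3, were at 13.5 ± 2.07 and 13.1 ± 1.64 FPKM and at 6.05 ± 0.950 and 5.95 ± 1.01 FPKM in control and mitochondria libraries. Of the receptors that induce efflux pumps, the xenobiotic receptors Nr1i2 and Nr1i3 were at 0.347 and 0.111 FPKM or less, and the smallest p among the 7 tested was that of Rxra (limma adjusted p = 0.495).

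The potassium channel pores of Abcc8 and Abcc9, Kcnj8 at 0.547 FPKM or less and Kcnj11 listed at 0, were not tested, and each of the other lists gave 1 name by its smallest p. Among 15 tested partners of the mitochondrial members in heme and iron-sulphur metabolism it was Nfs1, the cysteine desulphurase, at 10.6 ± 0.362 and 12.2 ± 0.249 FPKM (limma adjusted p = 0.197), and the median log2 change of these partners was -0.02. Of 9 tested peroxisome partners 5 lay wholly below the controls (11.4% of all genes tested did), with a median log2 change of -0.12, and the smallest p was that of Hsd17b4, an enzyme of peroxisomal oxidation, at 35.2 ± 0.565 and 32.0 ± 0.806 FPKM (limma adjusted p = 0.261). In the cobalamin list Mut, the methylmalonyl-CoA mutase, was at 13.2 ± 1.09 and 15.5 ± 0.405 FPKM (limma adjusted p = 0.232), and in the translation list Eif2ak4, the kinase GCN2, was at 5.12 ± 0.291 and 5.94 ± 0.0943 FPKM (limma adjusted p = 0.251). The peptide transporter gene Tap2, an ABC gene outside the symbol rule, was at 15.7 ± 1.13 and 22.5 ± 3.55 FPKM (limma adjusted p = 0.119). Tap1, its partner, was at 7.30 ± 2.56 and 8.49 ± 0.747 FPKM (limma adjusted p = 0.674), and Cftr, the chloride channel, at 2.53 ± 0.491 and 2.30 ± 0.273 FPKM (limma adjusted p = 0.792). Nlrc5, a regulator of antigen presentation, was at 1.45 ± 0.200 and 2.29 ± 0.153 FPKM (limma adjusted p = 0.0865).

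The promoters of 36 members had a RefSeq start within 500 bases of the annotated gene start. Observed over expected CpG was 0.6 or more in 13 of 19 windows of tested members (68.4%) and in 7 of 17 of those not tested (41.2%). Over all protein-coding genes these shares were 73.6% of 7700 and 21.6% of 6093 windows. The members that lie together on chromosome 11 differed in this: Abca5 had a ratio of 0.850, whereas Abca8b, Abca8a and Abca9 had 0.403, 0.349 and 0.165. Abcg2 was at 13.1 FPKM with a ratio of 0.183 at the start nearest the annotated one, and RefSeq lists further starts for it. DR4, which is AGGTCA repeated after 4 bases, was searched on both strands with up to 3 mismatches, and Abca1 was the 1 member of 36 with a match, as had 17.2% of all windows. An E-box occurred in 5 members (7.31% of all windows), the antioxidant response core in Abcc4, Abcc10 and Abcc2 (11.1%), GGGCGG in 16 (47.5%) and CCAAT in 10 (36.6%). Such a match describes the letters in the window and is no evidence of binding.

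**Figure D4:**
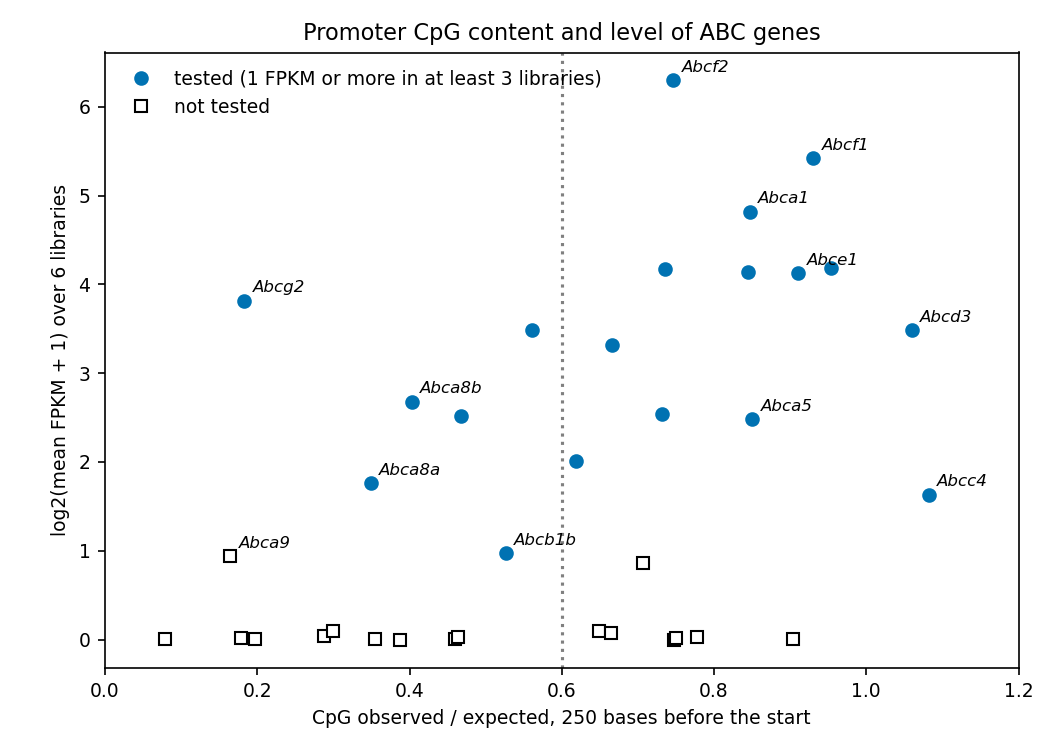
Observed over expected CpG in the 250 bases before the start (x axis) against the log2 of the mean FPKM + 1 over 6 libraries (y axis) for 36 members, with tested genes filled and the dotted line at 0.6. Abcg2, Abca8a and Abca8b are tested genes to the left of the line, and 7 genes that were not tested lie to its right.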

How the data were processed

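RNA libraries, 3 control and 3 mitochondria, were deposited by the authors as 1 value per mouse gene, taken as FPKM because sums and steps of the values fit that unit and no header names one. The submitters' processing notes list FastQC 0.11.5, STAR 2.5.3a, StringTie 1.3.1c and GRCm38, without roles. Symbols and coordinates came from GENCODE M21 (55154 identifiers matched), and promoters from RefSeq (GRCm38.p6), which held 38 of the 50 members. Depth was implied by the worth of 1 fragment in genes with 1 transcript, and 16.5% to 18.4% of low values were within 0.02 of whole multiples, so no count test was run. Group differences were fitted by limma 3.58.1 (R 4.3.3) to log2(FPKM + 1), with a trended, robust variance, two-sided p-values and Benjamini-Hochberg adjustment over all genes tested. This scale understates the fold of low genes. The code was tested on simulated data. Alternatives were a pseudocount of 0.1, testing every gene above 0 in any library, and testing genes averaging 5 FPKM or more. Further alternatives were TMM or quantile scaling, plain empirical Bayes (neither trended nor robust), the replicate number as a block, and leaving out each library. Of the tested members 25 were named and the others, though in the counts, are not reported here. The partner gene of smallest p in each list was also named, with some further receptors and members as values. Of 11842 genes at 1 FPKM or more throughout, 0 had identical values in any pair of libraries. Members and lists were chosen with earlier results of these data known.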

Additional observations from a re-analysis of the deposited data

How the results depend on the processing

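No member passed in any setting, and the smallest adjusted p in the family ranged from 0.0502 (plain empirical Bayes, Abcc3) to 0.195 (without mitochondria replicate 1, Abcc4). Over all genes the limma calls went from 141 to 13 with no filter, to 56 with the replicate block and to between 14 and 88 without 1 library. Under the replicate block 10 members had an unadjusted p under 0.05 in place of 8, and 0 passed; there were 4 among genes averaging 5 FPKM or more, and 4 to 8 without 1 library. Deviations of same-numbered libraries correlated by 0.102, 0.0463 and 0.30, the last being the highest of all pairs. Control replicate 2 correlated best with mitochondria replicate 1, by 0.123. With 3 libraries in each group these values cannot tell whether the numbers mark pairs. The median log2 change of the efflux pumps, 0.09, was 0.019 over the pumps with a mean of at least 5 FPKM, where fewer genes were tested, and 0.015 to 0.15 without 1 library. That of the lipid exporters, 0.16, was 0.12 to 0.25 without 1 library. Of the 27 members 19 kept their direction in every setting. Abce1 was at 0.0035 with quantile normalization. Without 1 library the log2 changes ran from -0.0093 to 0.17 for Abca2, -0.033 to 0.047 for Abca3, -0.036 to 0.061 for Abcc1, -0.11 to 0.13 for Abcc5, -0.045 to 0.0039 for Abcd2, -0.034 to 0.017 for Abce1, -0.025 to 0.022 for Abcf3, and -0.054 to 0.31 for Abcg1. The cause was not tested. Depth limits the members under 1 FPKM, Abcb1a among them.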
